A study of Mus musculus with 12 samples.

Results

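The immediate early genes examined here were Arc, Egr1, Egr2, Egr3, Nr4a1, Nr4a2, Nr4a3, Fos, Fosb and Junb, 10 of the 49585 genes in the count files. They were chosen from earlier results of these libraries, which already held the difference between genotypes, and were matched by gene symbol. Because the choice used that difference, the genotype values of the 10 genes are given as a description without p-values. Naive CD4 T cells of female Rnmt fl/fl mice, in which loxP sites surround exon 3 of Rnmt, were compared with those of Rnmt fl/fl mice that also carry a CD4-Cre transgene (Rnmt cKO), all on a C57B6/J background. Both genotypes therefore carried the floxed allele, and the transgene is active in T cells from the stage at which CD4 is first expressed. RNMT is the methyltransferase that completes the m7G cap of mRNA. Cells isolated from lymph nodes were activated for 20 h on plates coated with anti-CD3 (5 µg/ml) and anti-CD28 (1 µg/ml), and cycloheximide (0.1 mg/ml, 1 min) was added before lysis. Total cytoplasmic RNA and ribosome protected fragments (RPF) were sequenced from 3 control and 3 Rnmt cKO samples, which gave 12 libraries. The total RNA libraries held 15079703 to 22629563 counts on genes each and the RPF libraries 4123271 to 10661356, of which the library of Rnmt cKO 3 was the shallowest. Levels are given as CPM, the share of a library's counts scaled to a fixed total, after TMM normalisation within each kind of library, so that each value is relative to the other RNA of its library and not to the number of cells. The paper reports less mRNA per cell in activated Rnmt cKO cells than in control cells. It states that rises of single genes are for this reason overestimated by RNA sequencing, and falls underestimated. In such bulk samples fewer cells that express a gene and less RNA per cell cannot be told apart. The labels do not say that the numbered samples came from separate mice, and the p-values measure the spread between these samples.

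Immediate early genes are transcribed within minutes of a stimulus without the need for new protein, and most of their mRNAs and proteins are short lived. In T cells the antigen receptor reaches them through ERK, calcium and calcineurin, and through kinases that act on SRF, CREB and MEF2 factors already bound at the promoters. EGR and AP-1 proteins then activate cytokine and proliferation genes, NR4A nuclear receptors restrain effector programmes and follow the strength of receptor signalling, and Arc is a capsid-like protein best known for its role at synapses. All libraries are from a single time point, 20 h of activation.

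RefSeq promoter windows (GRCm38.p6, 250 bases before to 50 bases after a transcript start) matched 7 of the 10 genes, with 11 windows. Arc, Egr1 and Egr3 were not matched. The windows were searched on both strands for the core of the cAMP response element, TGACG, which CREB family proteins bind, for the full element TGACGTCA, for the AP-1 site TGANTCA, for the EGR site GCGNGGGCG and for the CArG box of SRF. TGACG is part of TGACGTCA, so the matches of the first include those of the second. The core was found in 20.8% of all 32851 promoter windows in the table, and 4 or more cores in 0.231%. Each of the 3 Nr4a windows held 4 cores. Fos held 2, Fosb and Junb 1 each, and the 5 overlapping or neighbouring windows of Egr2 between 0 and 2. The full element, present in 1.79% of all windows, and the AP-1 site, in 7.81%, were in none of the 11. The EGR site was in Nr4a1, Nr4a2 and Fosb (5.55% of all windows), and the CArG box in 4 of the 5 Egr2 windows (1.63% of all windows). The Nr4a windows are shown because the 3 genes were all higher in total RNA of Rnmt cKO cells, and an Egr2 window because Egr2 was not. Fosb and Junb, with 1 core each, were also higher there, and Fos, with 2, was not. The cores, and in Egr2 also the CArG box, are in capitals. A core on the other strand reads CGTCA in the sequence as shown. A match of letters describes the window and not the binding of a factor.
Nr4a1, chr15:101266596-101266895, plus strand: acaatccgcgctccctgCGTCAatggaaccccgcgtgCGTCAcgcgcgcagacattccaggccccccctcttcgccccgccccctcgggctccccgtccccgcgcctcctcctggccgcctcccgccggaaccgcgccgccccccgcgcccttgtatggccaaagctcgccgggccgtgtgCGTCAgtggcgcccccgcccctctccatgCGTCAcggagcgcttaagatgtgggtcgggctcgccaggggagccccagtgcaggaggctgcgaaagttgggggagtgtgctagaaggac
Nr4a2, chr2:57123954-57124253, minus strand: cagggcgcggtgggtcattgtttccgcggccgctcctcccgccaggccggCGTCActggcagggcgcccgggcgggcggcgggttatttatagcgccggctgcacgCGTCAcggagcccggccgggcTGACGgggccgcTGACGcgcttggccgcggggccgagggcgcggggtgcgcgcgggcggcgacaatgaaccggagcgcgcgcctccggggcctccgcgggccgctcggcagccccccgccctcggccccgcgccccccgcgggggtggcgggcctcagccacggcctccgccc
Nr4a3, chr4:48045055-48045354, plus strand: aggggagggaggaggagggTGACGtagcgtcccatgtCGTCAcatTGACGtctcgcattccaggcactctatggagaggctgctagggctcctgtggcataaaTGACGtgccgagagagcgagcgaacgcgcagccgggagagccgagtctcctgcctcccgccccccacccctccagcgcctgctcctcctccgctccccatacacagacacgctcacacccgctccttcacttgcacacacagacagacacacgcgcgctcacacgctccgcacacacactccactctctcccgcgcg
Egr2, chr10:67537619-67537918, plus strand: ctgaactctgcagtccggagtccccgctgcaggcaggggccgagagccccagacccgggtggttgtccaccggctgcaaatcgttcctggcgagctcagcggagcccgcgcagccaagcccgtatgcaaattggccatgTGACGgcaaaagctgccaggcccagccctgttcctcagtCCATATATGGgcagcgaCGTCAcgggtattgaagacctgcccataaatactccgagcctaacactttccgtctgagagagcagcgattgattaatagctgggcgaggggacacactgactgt

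The pentamer ATTTA is the core of the AU-rich elements that mark many short-lived mRNAs for decay. It was counted in the 3′ UTR of the transcript with the longest coding sequence (GENCODE vM21) for the 10 genes and for 10122 protein-coding genes tested in total RNA. It was present in 9 of the 10 genes, against 66.7% of all genes. The exception was Arc, whose 3′ UTR of 1668 bases held 0. Egr3 held 7 in 2645 bases, Nr4a3 5, Fos 4, Egr2, Nr4a1 and Nr4a2 3 each, Egr1 and Junb 2 each, and Fosb 1. Per kilobase of 3′ UTR, Nr4a1 (5.52) and Fos (4.91) had the most, and the median over the 10 genes was 2.38 against 1.26 over all genes. The densest stretches of these 2 genes are shown with the pentamers in capitals. In Fos a pair of pentamers shares a base, an arrangement present in 5.85% of all genes and in no other of the 10.
Fos: aacgtttttattgtgttttcaATTTATTTA
Nr4a1: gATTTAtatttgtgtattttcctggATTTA

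Rnmt itself was at 94.4 ± 0.751 CPM (SD, n = 3) in total RNA of control cells and at 30.6 ± 1.56 CPM in Rnmt cKO cells, and at 96.7 ± 8.25 and 10.1 ± 0.495 CPM in RPF, so the libraries fitted their labels. The CD4 T cell markers Cd3d, Cd3e, Cd3g, Cd4, Lck, Cd28 and Cd5 were all detected, with a summed level of 3257 CPM in total RNA of control and 2455 CPM in that of Rnmt cKO cells.

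The genes lie on several chromosomes (GRCm38, GENCODE vM21). Arc, with 3 exons, lies at chr15:74669083-74672570 on the minus strand, and Nr4a1, with 8 exons in its longest transcript, at chr15:101254269-101274795 on the plus strand. Egr1 is at chr18:34859823-34864984, Egr2 at chr10:67535475-67542188 and Egr3 at chr14:70077203-70082614, all on the plus strand and each with 2 exons. Nr4a2 (chr2:57106830-57124003, minus) and Nr4a3 (chr4:48045153-48086447, plus) have 8 exons, as Nr4a1 does. Fos (chr12:85473890-85477273, plus) and Fosb (chr7:19302696-19310051, minus) have 4 exons, and Junb (chr8:84974484-84978718, minus) has 1. Junb was the only one of the 10 that overlapped another gene, Prdx2 on the opposite strand, and the counts used were those of the gene's own strand.

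In total RNA 7 of the 10 genes were higher in Rnmt cKO cells, and the other 3 (Egr2, Egr3 and Fos) overlapped between genotypes. The median log2 fold change over the 10 genes was 1.10, and that over all 11519 genes tested was -0.00. With edgeR's quasi-likelihood test and an adjusted p threshold of 0.05, the 7 genes were called increased and 0 decreased (also 0 at an unadjusted p threshold of 0.05 and with DESeq2), while 26.3% of all genes tested were called increased and 28.0% decreased. In 7 genes every Rnmt cKO library was above every control library, which held for 30.0% of all genes, and in 0 every one was below, which held for 32.3%. In RPF 6 genes were called increased and 1 (Egr3) decreased, against 14.1% and 15.7% of all 11428 genes tested. The Rnmt cKO libraries were all above the control libraries in 6 genes and all below in 2 (Egr3 and Fos), against 22.2% and 24.3% of all genes. The median log2 fold change in RPF was 0.80, and that of all genes 0.01. As the genes were chosen with this comparison known, these counts are not read against the background.

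**Figure D1:**
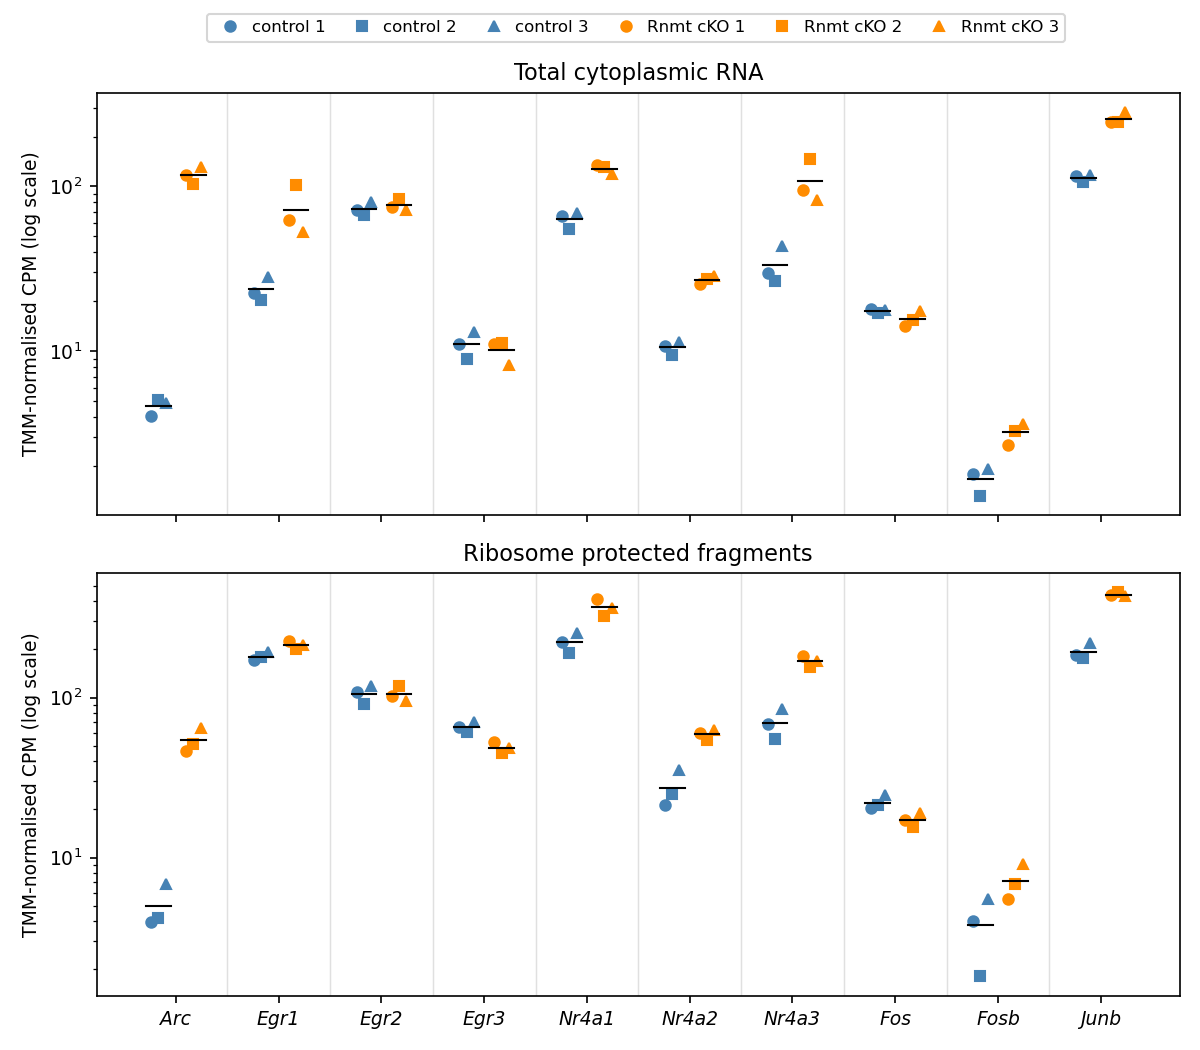
Levels of the 10 genes in each library, in TMM-normalised CPM on a log axis, for total cytoplasmic RNA (top) and RPF (bottom); each point is 1 library of control (blue) or Rnmt cKO (orange) cells and black lines are group means (n = 3). In total RNA the Arc points of the 2 genotypes lie furthest apart, and those of Egr2, Egr3 and Fos overlap.

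Arc, the activity-regulated cytoskeleton-associated gene, had the largest difference of the 10. In total RNA it was at 4.02, 5.07 and 4.84 CPM in control 1, 2 and 3 and at 116, 103 and 130 CPM in Rnmt cKO 1, 2 and 3. The lowest Rnmt cKO library was more than an order of magnitude above the highest control library. The log2 fold change was 4.65 (SE 0.13), a ratio of means of 25.0, and was the 7th largest rise among the 11519 genes tested. The counts behind these levels were 76, 96 and 90 reads in the control libraries and 1719, 1994 and 3015 in the Rnmt cKO libraries. In RPF Arc was at 3.93, 4.21 and 6.85 CPM in control and at 46.3, 51.3 and 64.6 CPM in Rnmt cKO cells, from 28 to 56 reads per control library and 263 to 527 per Rnmt cKO library. The groups were again far apart, with a log2 fold change of 3.43 (SE 0.22) and a ratio of means of 10.8. The rise was smaller in RPF than in total RNA. The Arc RPF level divided by its total RNA level was 0.978, 0.830 and 1.41 in the control samples and 0.398, 0.50 and 0.497 in the Rnmt cKO samples, which did not overlap.

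The 3 EGR genes encode zinc finger transcription factors that are induced through ERK and calcium, and they differed from each other. Egr1 was at 22.4, 20.5 and 28.2 CPM in total RNA of control and at 62.7, 101 and 52.6 CPM in that of Rnmt cKO cells. All 3 Rnmt cKO libraries were higher, but they spread widely, with Rnmt cKO 2 at 1.93 times the level of Rnmt cKO 3. The log2 fold change was 1.61 (SE 0.24). In RPF Egr1 was at 171, 178 and 192 CPM in control and at 226, 203 and 213 CPM in Rnmt cKO cells. The groups were separate but close, with a log2 fold change of 0.25 (SE 0.07). This call was lost with edgeR's exact test and on leaving out control 1, control 2, Rnmt cKO 1 or Rnmt cKO 3.

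Egr2, which with Egr3 is known to restrain T cell responses and to be induced by NFAT, was at 71.6, 67.3 and 79.8 CPM in total RNA of control and at 75.1, 84.1 and 72.0 CPM in that of Rnmt cKO cells. Its RPF levels were 108, 90.8 and 118 CPM in control and 103, 118 and 95.5 CPM in Rnmt cKO cells. The groups overlapped in both kinds of library, with log2 fold changes of 0.08 (SE 0.09) and -0.00 (SE 0.11). Egr3 was at 11.0, 8.93 and 13.0 CPM in total RNA of control and at 11.1, 11.2 and 8.23 CPM in that of Rnmt cKO cells, which overlapped (log2 fold change -0.11, SE 0.17). In RPF it was at 65.7, 60.9 and 70.6 CPM in control and at 52.5, 45.2 and 48.1 CPM in Rnmt cKO cells. Here every Rnmt cKO library was lower, and Egr3, with a log2 fold change of -0.44 (SE 0.09), was the only one of the 10 genes called decreased.

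The NR4A genes encode orphan nuclear receptors, of which Nr4a1 (Nur77) is widely used as a reporter of antigen receptor signalling. Nr4a1 was at 65.9, 54.8 and 68.9 CPM in total RNA of control and at 134, 130 and 118 CPM in that of Rnmt cKO cells, with a log2 fold change of 1.01 (SE 0.09). Nr4a2 (Nurr1) was at 10.7, 9.40 and 11.4 CPM in control and at 25.6, 27.3 and 28.3 CPM in Rnmt cKO cells, with a log2 fold change of 1.37 (SE 0.10). Nr4a3 (NOR1) was at 29.8, 26.5 and 43.1 CPM in control and at 94.9, 147 and 82.3 CPM in Rnmt cKO cells, with a log2 fold change of 1.71 (SE 0.25). All 3 genes were higher in every Rnmt cKO library than in any control library, and Nr4a3, like Egr1, was highest in Rnmt cKO 2.

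In RPF Nr4a1 was at 223, 189 and 252 CPM in control and at 416, 323 and 363 CPM in Rnmt cKO cells (log2 fold change 0.73, SE 0.12). Nr4a2 was at 21.3, 24.8 and 35.3 CPM in control and at 60.2, 54.6 and 63.1 CPM in Rnmt cKO cells (1.13, SE 0.17). Nr4a3 was at 68.2, 55.3 and 85.1 CPM in control and at 181, 155 and 170 CPM in Rnmt cKO cells (1.28, SE 0.14). The groups were separate in all 3 genes. Summed over the family, the level in Rnmt cKO cells was 2.46 times that of control in total RNA and 1.87 times in RPF. It was 1.48 and 1.05 times for the summed EGR genes, and 2.09 and 2.12 times for Fos, Fosb and Junb summed.

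Fos, Fosb and Junb encode subunits of AP-1, the dimeric factor that acts with NFAT at cytokine genes. Junb, the most abundant of the 10 in total RNA, was at 116, 107 and 116 CPM in control and at 244, 246 and 282 CPM in Rnmt cKO cells. In RPF it was at 185, 176 and 219 CPM in control and at 438, 455 and 431 CPM in Rnmt cKO cells. The groups were separate in both, and the log2 fold changes were equal to 2 decimals, 1.19 (SE 0.07) in total RNA and 1.19 (SE 0.09) in RPF. Fosb was near the lowest levels tested, at 1.80, 1.32 and 1.94 CPM in total RNA of control and 2.71, 3.29 and 3.62 CPM in that of Rnmt cKO cells. These groups were separate, with a log2 fold change of 0.94 (SE 0.20). In RPF Fosb was at 4.03, 1.80 and 5.50 CPM in control and at 5.49, 6.82 and 9.08 CPM in Rnmt cKO cells. From 12 to 70 reads per library lay behind these RPF values, the groups overlapped, and the log2 fold change of 0.87 (SE 0.38) was not called.

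Fos was at 18.0, 17.0 and 17.7 CPM in total RNA of control and at 14.2, 15.3 and 17.5 CPM in that of Rnmt cKO cells. These groups overlapped (log2 fold change -0.16, SE 0.10). In RPF it was at 20.3, 21.2 and 24.7 CPM in control and at 17.0, 15.6 and 18.9 CPM in Rnmt cKO cells. Every Rnmt cKO library was below the control libraries, but the log2 fold change of -0.37 (SE 0.13) was not called.

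**Figure D2:**
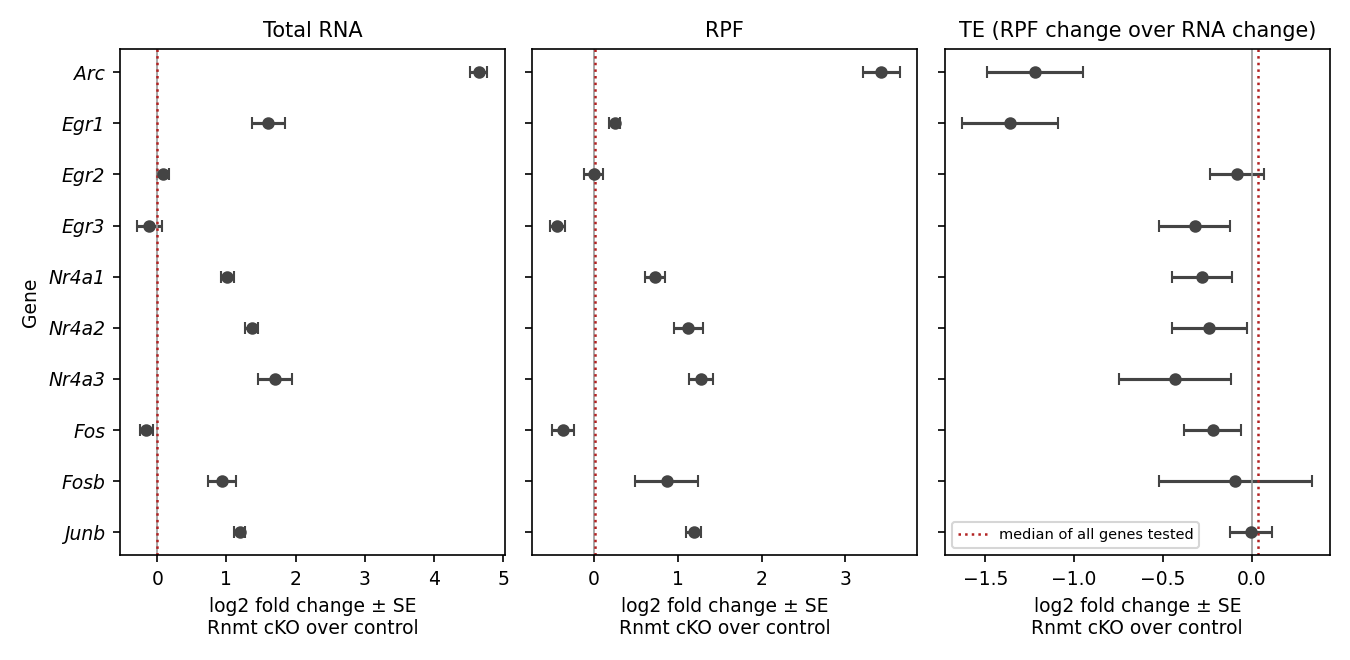
Log2 fold change of Rnmt cKO over control for each of the 10 genes in total RNA (left), RPF (middle) and translation efficiency (TE, the change in RPF over the change in total RNA, right), with bars of 1 SE. The dotted line marks the median of all genes tested; the TE values of Arc (-1.22) and Egr1 (-1.36) lie furthest from it.

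Translation efficiency (TE) was compared as the interaction of genotype and kind of library, which is the log2 fold change in RPF less that in total RNA. Arc (-1.22, SE 0.27) and Egr1 (-1.36, SE 0.27) were called decreased and 0 of the 10 genes increased (also 0 without adjustment and with DESeq2), against 6.55% and 3.22% of the 10668 genes tested. Both genes rose in total RNA and rose less in RPF. The call of Arc was lost without control 3 (-0.96) and without Rnmt cKO 1 (-1.13). The remaining 8 genes, from -0.43 (SE 0.31) in Nr4a3 to -0.00 (SE 0.12) in Junb, were not called. The median over the 10 genes was -0.26, and that over all genes tested 0.03.

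Levels per kilobase of exon allow the genes to be compared with one another in total RNA. In control cells the order was Junb (49.0 ± 2.34 CPM per kb, SD, n = 3), Egr2 (21.5 ± 1.86), Nr4a1 (18.0 ± 2.11), Fos (7.46 ± 0.228), Nr4a3 (5.53 ± 1.48), Egr1 (5.28 ± 0.893), Nr4a2 (2.59 ± 0.251), Egr3 (2.49 ± 0.464), Arc (1.52 ± 0.180) and Fosb (0.270 ± 0.0518). The SD ranges of the neighbours Egr2 and Nr4a1, Nr4a3 and Egr1, and Nr4a2 and Egr3 overlapped, so their order is not resolved, and with the length of the longest transcript Egr2 (24.6) and Nr4a1 (24.8) changed places. In Rnmt cKO cells Junb (112 ± 9.29) was again the highest, and Arc (38.1 ± 4.47) and Nr4a1 (36.3 ± 2.35) came next and overlapped each other. With the length of the longest transcript Nr4a1 (49.9 ± 3.23) was above Arc (38.1 ± 4.47) without overlap. Arc was thus near the bottom of the order in control cells and near the top in Rnmt cKO cells. Egr2 (22.7 ± 1.85) was followed by Nr4a3 (18.0 ± 5.72) and Egr1 (16.1 ± 5.72), then Fos (6.67 ± 0.708) and Nr4a2 (6.67 ± 0.338), Egr3 (2.31 ± 0.385) and Fosb (0.514 ± 0.0740). In Rnmt cKO cells the SD ranges of Egr2, Nr4a3 and Egr1 all overlapped one another, as did those of Fos and Nr4a2, and the order among these genes is not resolved.

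Likeness to Arc was measured as Pearson's r of log2(CPM + 0.5) over the 12 libraries, centred within each kind of library, for the 10667 other genes tested in both kinds. Among the 10 genes Junb (0.98), Nr4a2 (0.98), Nr4a1 (0.95) and Nr4a3 (0.94) were most like Arc, followed by Egr1 (0.81) and Fosb (0.79). Egr2 (0.19), Egr3 (-0.54) and Fos (-0.65) were not like it. The 5 most alike of all genes were Otud5, Hsf2, Pkp3, Ctu1 and Lta, with r from 0.99 to 1.00 and log2 fold changes in total RNA of 0.88 (SE 0.05), 1.79 (SE 0.08), 1.00 (SE 0.09), 0.74 (SE 0.08) and 1.93 (SE 0.11). Otud5 encodes a deubiquitinase, Hsf2 a heat shock transcription factor, Pkp3 a plakophilin, Ctu1 an enzyme of tRNA thiolation and Lta the cytokine lymphotoxin alpha. The libraries share genotype and sample, so r mainly follows the difference between genotypes.

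Of 30 other immediate early genes (a list written with earlier results of these data known), 29 were tested in total RNA, where 24 were called increased and the other 5 were not called, beside 26.3% of all genes tested that were called increased. Their median log2 fold change was 1.28, against -0.00 over all genes tested. The largest rises were in Rgs2, a regulator of G protein signalling (2.90, SE 0.17), Gadd45b, a stress-induced regulator of MAP kinases (2.84, SE 0.16), and Pim1, a serine/threonine kinase (2.59, SE 0.11). Rgs2 was at 34.3, 32.6 and 44.2 CPM in control and at 257, 234 and 338 CPM in Rnmt cKO cells. Gadd45b was at 18.7, 19.3 and 28.6 CPM in control and at 148, 160 and 167 CPM in Rnmt cKO cells, and neither gene overlapped between genotypes. In RPF 21 of the 30 were called increased and 1 (Btg2, an antiproliferative factor) decreased, with a median of 0.93, beside 14.1% and 15.7% of all genes. Gadd45b rose by a similar amount in RPF (3.26, SE 0.16), whereas the RPF log2 fold change of Rgs2 was 0.91 (SE 0.15). In TE 6 of 29 (Rgs2, Ier2, Sik1, Klf10, Pim1 and Btg2) were called decreased, from -2.0 in Rgs2 to -0.43 in Btg2, and the other 23 were not called. Of all genes 6.55% were called decreased in TE. Ier2, Sik1, Klf10 and Btg2 were named after their values were seen.

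**Figure D3:**
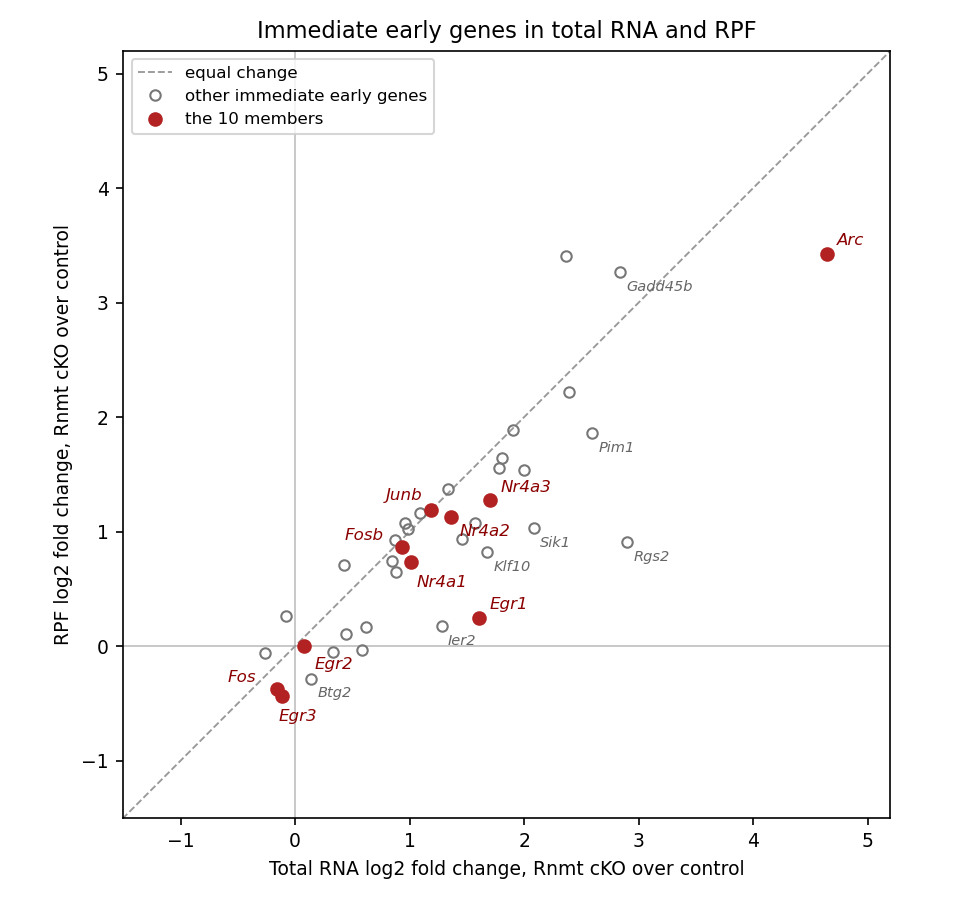
Log2 fold change of Rnmt cKO over control in total RNA (x axis) and RPF (y axis) for the 10 genes (filled) and for the 29 other immediate early genes tested in both (open), with a dashed line of equal change. Arc (4.65 and 3.43), Egr1 (1.61 and 0.25) and Rgs2 (2.90 and 0.91) lie below the line, and Gadd45b (2.84 and 3.26) above it.

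Of 11 further AP-1 and bZIP genes 9 were tested, and 6 were called increased and 1 decreased in total RNA (median 0.47), beside 26.3% and 28.0% of all genes. Atf3, a stress-induced member of the ATF family, was at 4.66, 5.12 and 6.83 CPM in control and at 32.4, 70.1 and 27.8 CPM in Rnmt cKO cells (log2 fold change 2.97, SE 0.38). Jun, the main partner of Fos proteins, was at 5.35, 8.82 and 11.9 CPM in control and at 46.7, 52.5 and 40.6 CPM in Rnmt cKO cells (2.42, SE 0.24). Both were higher in every Rnmt cKO library, and Maff, a small Maf protein, rose by less (0.62, SE 0.14). Bach2, a repressor that competes with AP-1, was the gene that fell (-0.39, SE 0.10). In RPF 4 of the 9 were called increased and 1 decreased, beside 14.1% and 15.7% of all genes.

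Of the 25 upstream kinases, calcineurin subunits and transcription factors 5 were called increased and 6 decreased in total RNA (median -0.05), and 1 and 7 in RPF (median -0.10). Of all genes 26.3% and 28.0% were called in these directions in total RNA and 14.1% and 15.7% in RPF. The largest rises were in Mef2c (3.46, SE 1.05), Crtc2, a CREB coactivator (0.53, SE 0.16), and Nfatc3 (0.44, SE 0.09), and the largest falls in Elk3, a partner of SRF (-1.18, SE 0.10), Creb1 (-0.74, SE 0.06) and Crem (-0.60, SE 0.11). Mef2c, which is also a B cell transcription factor, was at 0.741, 0.581 and 3.34 CPM in control and at 13.3, 36.4 and 1.77 CPM in Rnmt cKO cells. Its groups overlapped, and Rnmt cKO 3 was below control 3. Of 13 feedback inhibitors and corepressors 3 were called increased and 4 decreased in total RNA (median 0.06), and 3 and 3 in RPF (median -0.10), to be read beside the same shares of all genes. Spry2 (2.19, SE 0.36), an inhibitor of ERK signalling, Dusp4 (1.23, SE 0.15), a MAP kinase phosphatase, and Cblb (1.13, SE 0.23), a ubiquitin ligase, rose. Dusp6 (-1.08, SE 0.11), a phosphatase of ERK, Dgkz (-0.75, SE 0.07), a diacylglycerol kinase, and Rcan1 (-0.43, SE 0.10), a calcineurin inhibitor, fell.

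Markers of B cells moved with the genotype. Summed over 6 genes in total RNA, they were at 9.90, 6.23 and 35.6 CPM in control 1, 2 and 3 and at 91.7, 110 and 20.1 CPM in Rnmt cKO 1, 2 and 3, with Ms4a1 (CD20) the most abundant and none of the 6 at 0. Rnmt cKO 3 was therefore below control 3 in these markers. Between those 2 libraries Arc was at 4.84 and 130 CPM, Junb at 116 and 282 CPM, Nr4a2 at 11.4 and 28.3 CPM and Egr1 at 28.2 and 52.6 CPM, and all 7 genes called increased were higher in Rnmt cKO 3 than in control 3. An alternative chosen after the data were seen left out Rnmt cKO 1 and 2. It assumes that the single Rnmt cKO library varies as the control libraries do, so only effect sizes are given. The median log2 fold change over the 10 genes was then 1.15 in total RNA and 0.93 in RPF, against -0.01 over all genes tested in each. Over the other immediate early genes it was 1.14 in total RNA. Rnmt cKO 3 still had more B cell marker RNA than control 1 and 2, so this alternative does not remove the difference in these markers. In total RNA of Rnmt cKO cells 4 of the 10 genes (Egr1, Egr2, Egr3 and Nr4a3) were highest in Rnmt cKO 2 and lowest in Rnmt cKO 3. Rnmt cKO 2 had the most B cell marker RNA and Rnmt cKO 3 the least. Another 5 (Arc, Nr4a2, Fos, Fosb and Junb) were highest in Rnmt cKO 3, and 1 (Nr4a1) was highest in Rnmt cKO 1. Of the control libraries, control 3 had the most B cell marker RNA. It also had the highest level of the 3 for 8 of the 10 genes in total RNA and for all 10 in RPF. In total RNA, Fos was highest in control 1 and Arc in control 2. The cells had been isolated with a kit for naive CD4 T cells, a selection meant to remove B cells. The part of B cell RNA in these orders of the libraries was not tested.

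**Figure D4:**
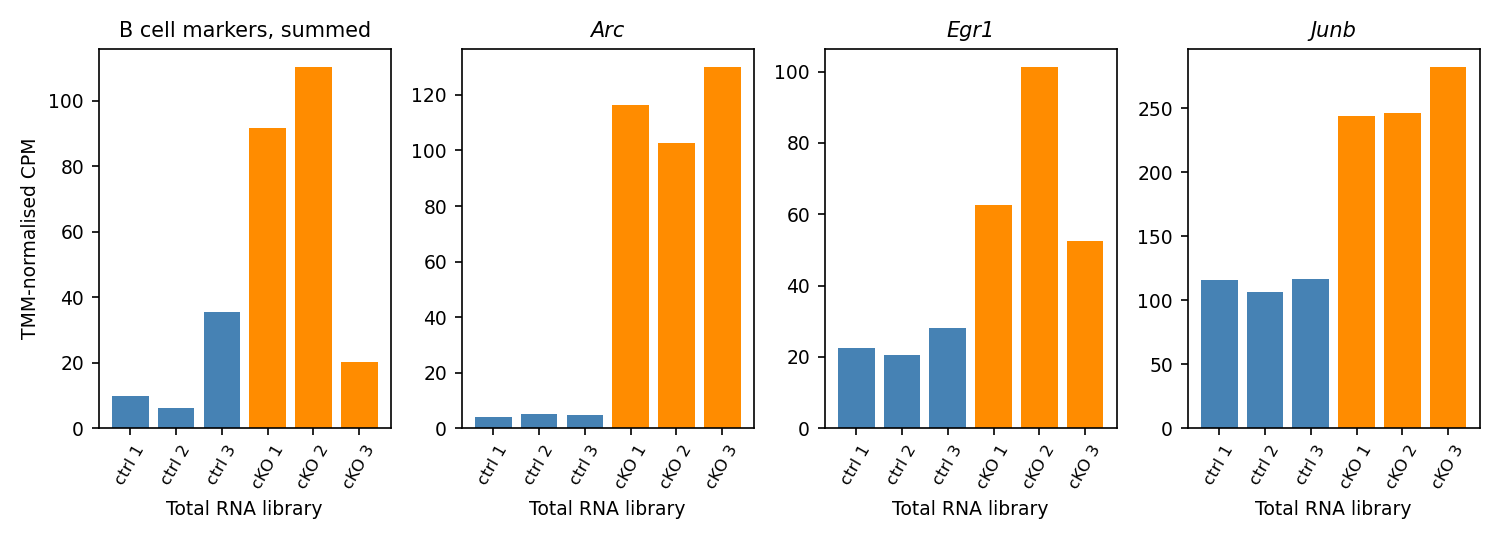
Summed level of 6 B cell markers and levels of Arc, Egr1 and Junb in each total RNA library, in TMM-normalised CPM, with control in blue and Rnmt cKO in orange. The B cell markers of Rnmt cKO 3 (20.1) lie below those of control 3 (35.6), while Arc, Egr1 and Junb lie above all control libraries in Rnmt cKO 3.

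A list of 8 dendritic cell genes summed to 31.8 CPM in control and 111 CPM in Rnmt cKO cells in total RNA, and the sum was carried by Cd74 and H2-Aa, which B cells express too. Zbtb46, a transcription factor of dendritic cells, was at 1.06, 2.22 and 2.90 CPM in control and at 7.59, 12 and 6.08 CPM in Rnmt cKO cells, so every Rnmt cKO library was above every control library, and it was called increased in total RNA and in RPF. Xcr1 and Cd209a were at 0 reads in all total RNA libraries. Summed levels of 3 NK cell genes, led by Ncr1, were 0.108 to 0.159 CPM in control and 0.690 to 1.29 CPM in Rnmt cKO cells in total RNA, and 0 to 0.245 and 0.982 to 1.75 CPM in RPF. The 6 myeloid genes, led by Fcer1g, summed to 0.106 to 0.370 and 0.463 to 1.02 CPM in total RNA, and to 0.0937 to 0.489 and 1.47 to 3.12 CPM in RPF. The NK cell and myeloid sums were thus low, and higher in every Rnmt cKO library than in every control library. Fcer1g, an Fc receptor subunit, was at 1, 1 and 0 RPF reads in control and at 11, 25 and 5 in Rnmt cKO libraries and was called increased in RPF (edgeR, adjusted p = 0.00428). In total RNA it was at 1, 2 and 2 reads in control and at 1, 6 and 5 in Rnmt cKO libraries, overlapped between genotypes and was not tested.

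Of 5 neuron genes, listed because Arc is best known from neurons, Map2 made up most of the sum, and it was called decreased (means of 2.20 and 0.434 CPM in control and Rnmt cKO cells). The other 4 were under 1 CPM, and of these Camk2a was at 0.106, 0.0528 and 0 CPM in control and at 0.271, 0.257 and 0.129 CPM in Rnmt cKO cells. The CD8 T cell markers summed to 28.1 and 19.1 CPM, led by Cd8a. Of the regulatory T cell markers, Ikzf2 was called increased in total RNA (10.0 and 21.8 CPM). It was also called increased in RPF (2.57 and 6.52 CPM), close to the threshold (edgeR adjusted p = 0.0499). Foxp3, their defining factor, was at 0.797 and 0.543 CPM in total RNA, where it was not tested, and at 6.0 and 5.30 CPM in RPF, where it was not called. Foxp3 overlapped between genotypes in both kinds of library. Of 7 stromal and endothelial genes Pecam1 was called decreased (79.2 and 42.2 CPM) and the other 6 were under 1 CPM. Of the 7 CD4 T cell markers, led by Cd28, 4 were called decreased in total RNA, beside 28.0% of all genes tested. Every Rnmt cKO library was below every control library in 5 of the 7, beside 32.3% of all genes tested. Zbtb46, H2-Aa, Fcer1g, Camk2a and Map2 were named after their values were seen. The part of these marker differences in the results was not tested.

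The ratio of RPF to total RNA within control cells does not involve the difference between genotypes by which the genes were chosen, and it was tested, although this test too was chosen with earlier results of these libraries known. In control cells 9 of the 10 genes had more RPF than total RNA CPM and 0 less at an adjusted p threshold of 0.05 (edgeR; also 0 less without adjustment and with DESeq2), against 44.8% and 30.4% of the 10668 genes tested. The ratio depends on the share of each library held by other RNA. The median gene was at 0.18 on the log2 scale, and leaving out the mitochondrial rRNA, which held 18.7 to 23.6% of the counts in total RNA and 2.30 to 4.51% in RPF, moved it to -0.10 and the shares of all genes called to 32.7% and 41.0%. With the median gene set to 0, a centring chosen after the data were seen, 8 of the 10 genes were still called higher and 0 lower, against 37.2% in each direction, and Fos was no longer called.

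Egr1 had the highest ratio of the 10, with RPF at 7.63, 8.70 and 6.81 times its total RNA level in control 1, 2 and 3. Its log2 ratio was 2.93 (SE 0.11, edgeR adjusted p = 2.4e-08), 2.74 above the median gene. Egr3 came next (2.58, SE 0.13, edgeR adjusted p = 1.0e-07), at 5.99, 6.82 and 5.42 times. Both lay among the 180 highest ratios of all genes tested, whereas their relative Egr2 was at 0.54 (SE 0.10, edgeR adjusted p = 8.1e-04). The 3 NR4A genes were at 1.81 (SE 0.12) for Nr4a1, 1.36 (SE 0.18) for Nr4a2 and 1.07 (SE 0.19) for Nr4a3, with edgeR adjusted p of 4.6e-07, 7.7e-05 and 6.4e-04. Junb was at 0.78 (SE 0.09, edgeR adjusted p = 2.0e-05) and Fosb at 1.19 (SE 0.36, edgeR adjusted p = 0.013). The call of Fosb was lost without control 1 or control 3.

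Fos (0.33, SE 0.10, edgeR adjusted p = 0.015) was called, but not without control 3, with the mitochondrial rRNA left out (0.04, edgeR adjusted p = 0.771) or with the median gene set to 0 (0.15, edgeR adjusted p = 0.223). Arc was the only one of the 10 that was not called (0.10, SE 0.24, edgeR adjusted p = 0.719), with ratios of 0.978, 0.830 and 1.41 on either side of 1. In Rnmt cKO cells the ratio of mean levels was 0.465 for Arc, 2.97 for Egr1, 4.77 for Egr3, 2.89 for Nr4a1 and 1.71 for Junb, against 1.08, 7.61, 5.99, 3.50 and 1.72 in control cells. Control 3 had the highest RPF level of the 3 control libraries for all 10 genes.

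**Figure D5:**
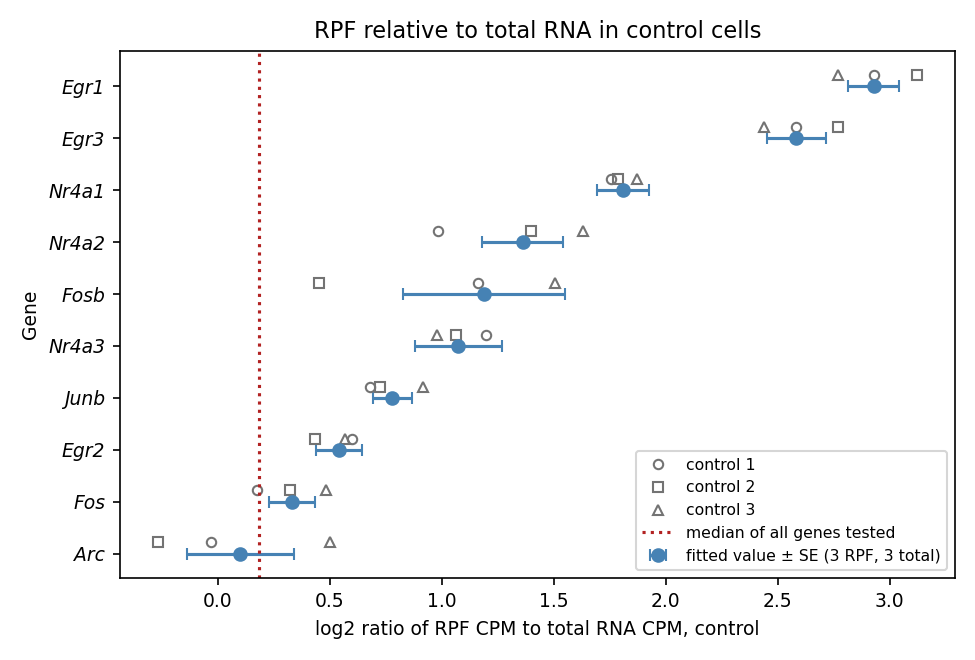
Log2 ratio of RPF CPM to total RNA CPM in control cells for the 10 genes, with the fitted value and SE (filled, n = 3 libraries of each kind, fitted without pairing) and the ratio in each control sample (open); the dotted line is the median of all genes tested (0.18). Egr1 and Egr3 lie furthest above the median and Arc lies near it.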

How the data were processed

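Total cytoplasmic RNA and RPF of 3 control and 3 Rnmt cKO samples were analysed, grouped by the labels. The authors kept read 2 only, trimmed adapters with cutadapt, removed rRNA and tRNA reads with Bowtie, aligned to mm10 (GRCm38) with STAR 2.5.2b and GENCODE vM12, and deposited raw counts per gene, without normalisation. Reads that name no gene (41.1 to 47.0% in total RNA and 53.9 to 70.4% in RPF) were left out, as were mitochondrial rRNA reads in an alternative. In total RNA, aligned reads that overlapped no counted gene were 5.34, 5.63 and 6.00% in control and 8.21, 8.14 and 7.24% in Rnmt cKO libraries. Reads with several alignments were 30.1, 29.3 and 28.7% in control and 25.1, 24.3 and 27.3% in Rnmt cKO libraries. The part of these differences in the results was not tested. A second deposited table of 10126 genes holds the authors' normalised signal values, which served only to find the strand (reverse) that the authors counted, and their own fold changes, p-values and TE values from edgeR and RiboDiff, which were not used. RiboDiff was not run.

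A gene was tested where 3 or more of the 6 libraries of a kind exceeded a CPM of 1 (both kinds for TE and for the ratio of RPF to total RNA). The counts were fitted by quasi-likelihood in edgeR 4.0.16 (R 4.3.3), with TMM within each kind and Benjamini-Hochberg adjustment over all genes tested (threshold 0.05). SE is the log2 fold change divided by the square root of F. The scripts were tested on simulated data. Symbols, lengths and 3′ UTRs come from GENCODE vM21, in which 49326 of the 49585 genes were found, and promoters from RefSeq (GRCm38.p6). Figures were drawn with matplotlib 3.10.9.

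The 10 genes, the 4 pathway lists (79 genes), the 9 marker lists (46 genes) and the tests were chosen with earlier results of these data known. Genes named by rule are the 10, Rnmt, the 5 genes most like Arc and the most abundant marker of each list. For each pathway list the rule adds the up to 3 largest rises and falls past the threshold in total RNA. Prdx2, markers at 0 reads and the full list of CD4 T cell markers were named besides. Other genes outside the rule were named after their values were seen, as stated with them. Same-numbered total RNA and RPF libraries of a genotype deviated together from their group means (r 0.158, 0.197 and 0.374 in control and 0.114, 0.374 and 0.293 in Rnmt cKO). The numbers were therefore taken to pair the kinds of library, although r was low and the labels do not give the pairing. The fits used it only in the replicate block. Across genotypes same-numbered libraries did not deviate together (r -0.521 to -0.214 in total RNA and -0.060 to 0.154 in RPF). Alternatives were DESeq2 1.42.0, edgeR's exact test, no TMM, other filters on low counts, mitochondrial rRNA left out, counts of both strands, a replicate block, each replicate left out and unadjusted p-values. Duplicate reads could not be told from separate molecules.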

Additional observations from a re-analysis of the deposited data

Results flagged for a closer look

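The change in TE of Arc (-1.218) and of Egr1 (-1.359), on the log2 scale, was flagged because both genes rose less in RPF than in total RNA. These values are the interaction of genotype and kind of library in edgeR. Both genes belong to the set chosen with these results known, so the values are a description and not an independent test. The call of Arc was also lost on leaving out certain single samples, as given with the TE results. The ratio of RPF to total RNA for Egr1 was 7.63, 8.70 and 6.81 in control and 3.61, 2.00 and 4.05 in Rnmt cKO samples, which did not overlap.

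Counts on the strand opposite to Junb, which enter only the alternative that counts both strands, reached 57 in the RPF library of Rnmt cKO 2, against 6, 7 and 6 in the control libraries and 1 and 2 in the other Rnmt cKO libraries. In total RNA they were 54, 59 and 37 in control and 35, 61 and 74 in Rnmt cKO libraries. Prdx2 overlaps Junb on that strand. Whether Prdx2 reads make up these counts was not tested. They were 0.520% of all Junb counts on both strands in RPF.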

How the results depend on the processing

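No called value changed direction under any alternative that was run, while uncalled values near 0 (Egr2, Egr3, Fos, Fosb, Junb and Arc in 1 comparison each) changed sign in some. Of the 10 genes, 7 were called increased in total RNA under every one. In RPF, at an unadjusted p threshold of 0.05, 7 genes in place of 6 were called increased (Fosb gained) and 2 (Egr3 and Fos) in place of 1 decreased, and 0 were called decreased when Rnmt cKO 1 and 2 were left out, where 477 genes in all were called increased and 520 decreased, with fewer samples. In TE, an unadjusted threshold gave 1261 genes increased and 1358 decreased in place of 343 and 699, and leaving out each replicate gave 123 to 356 increased and 410 to 829 decreased, and 1 to 2 of the 10 genes decreased. Fosb in RPF and Nr4a3 in TE passed the adjusted threshold with no low-count filter. In control cells 7 to 9 of the 10 genes had more RPF than total RNA when each control replicate was left out. The share of all genes tested was then 40.9 to 43.2%. Of the single-gene values under alternatives, 580 stayed on their side of the threshold or within 1 SD, 14 lost a call, 4 gained one and 12 levels per kilobase moved with the longest transcript. The replicate block, which pairs total RNA and RPF of a number, gave 425 genes increased and 775 decreased in TE and changed no call of the 10 genes. For the ratio of RPF to total RNA in control cells, the block called 45.8% of all genes higher and 31.1% lower. Depth limits Fosb and Arc most, with as few as 12 and 28 RPF reads in a control library.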
